A study of Mus musculus with 8 samples.

Results

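This section concerns 7 mouse genes that restrain mitogen-activated protein (MAP) kinase signalling, read in CD4 T cells cultured with or without TGF-b. They are 6 dual-specificity phosphatase genes, Dusp1, Dusp2, Dusp4, Dusp5, Dusp6 and Dusp10, and the Sprouty gene Spry1. The members were named as genes, and every probe set that the platform annotation gives to them was taken. That gave 8 probe sets of the 45101 on the array, 2 for Dusp10 and 1 for each of the others, and 7 genes of 18194 with a symbol of their own.

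MAP kinases (ERK, JNK and p38) are switched on when an upstream kinase phosphorylates a threonine and a tyrosine in their activation loop, and the dual-specificity phosphatases remove both phosphates. Many of these phosphatase genes are themselves switched on by MAP kinase signalling, so that they act as negative feedback. In T cells the antigen receptor drives the ERK branch through Ras, and Sprouty proteins act above ERK, on the path from receptor to Ras and Raf.

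Naive CD4 T cells (CD25 negative, CD44 low, CD62L high, sorted to a purity over 98%) came from spleens of C57BL/6J mice, whose age was not given in the sources used here. Tested cultures held TGF-b at 2 ng/ml and their controls none, and all cultures, controls included, held antibody to CD3e and antibody to CD28 at 1 ug/ml each, IL-2 at 10 ng/ml, and antibodies against IFN-g and against IL-4, each at 10 ug/ml, for 24 h. The genotypes were a conditional Smad2 deletion in T cells (Smad2del/del, here Smad2KO), a Smad3 knockout (Smad3-/-, here Smad3KO), Smad2del/del Smad3+/- (here Smad2KO_Smad3het, used in place of cells without both Smads), and wild type (WT). The TGF-b receptor phosphorylates Smad2 and Smad3, which then enter the nucleus and regulate transcription. The Cre line that deleted Smad2 was not given in the sources used here. Each genotype had 1 Affymetrix array with and 1 without TGF-b, 8 arrays in all. The design asks how far TGF-b responses depend on either Smad.

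Signals are linear probe set intensities, scaled so that every array had the same 2% trimmed mean. Changes are read for 1 probe set between arrays. Signals of different probe sets are ranked only to name the brighter or brightest, and summed only for cell type markers. The Smad2KO_Smad3het arrays stood apart: their scaled medians were 82.0 and 84.7, against 24.4 to 28.3 on the other 6. Before scaling the medians were 44.4 and 40.9, against 27.3 to 39.2, and the scale factors were 1.85 and 2.07, against 0.677 to 0.998. Their range was narrower, with the 98th percentile 4.85 and 4.79 log2 units above the median, against 6.81 to 7.07. Their rank correlations with the other 6 ran from 0.66 to 0.693, against 0.907 to 0.928 among the 6. All 7 CD4 T cell markers on the array were bright on every array. Of 5 B cell, 3 NK and 2 erythroid markers, 0 reached 51.6, which is 2 times the floor defined below, on any of the 6 arrays, and 2 of 7 myeloid markers (Csf1r and Cd68) and both CD8 markers did on at least 1. On at least 1 Smad2KO_Smad3het array 4 of 5 B cell, 3 of 3 NK, 5 of 7 myeloid and both CD8 markers did, and 0 of 2 erythroid markers. That cut lies under the medians of these arrays. Of all probe sets 62.2% and 62.8% reached it there, against 39.3% to 40.7% on the other 6, so these marker counts do not by themselves show other cells. On the Smad2KO_Smad3het arrays the summed CD8 marker signal was 978 to 1255, against 54.1 to 128 on the other 6. Myeloid markers summed to 2026 to 2415 there against 114 to 206, and B cell markers to 591 to 894 against 47.8 to 84.6. NK markers summed to 292 to 565 against 7.23 to 69.3, and erythroid markers to 39.6 to 76.2 against 2.78 to 31.8. The CD4 T cell sum was lower there, 14146 to 15235 against 20942 to 22709. The source of these differences was not tested. The brightest probe set for Smad2 read 830 and 916 in Smad2KO with and without TGF-b and 818 and 848 in WT, and that for Smad3 read 579 and 487 in Smad3KO and 435 and 119 in WT. These probes check no label, since their place relative to the deleted parts was not given in the sources used here. Probe sets for 18S ribosomal RNA read 56.1 to 146 in WT with TGF-b and 2074 to 3190 in WT without. They read 568 to 2019 on the Smad3KO arrays, 27.7 to 180 on the Smad2KO arrays and 15.5 to 160 on the Smad2KO_Smad3het arrays. The part of this in the comparisons below was not tested.

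Tests used limma, a linear model fitted to all probe sets at once, on the 6 arrays of Smad2KO, Smad3KO and WT. Signals under a floor of 25.8, the median of the 6 arrays, were set to it. Testing required a highest signal of at least 51.6. Of 45101 probe sets 20147 were tested, among them 7 of the 8 member probe sets, at least 1 for every gene. A probe set was called where its Benjamini-Hochberg adjusted p over all probe sets tested was under 0.05. Nothing in the labels ties the cultures to different animals. The p-values therefore speak for these cultures only. With 1 array per genotype and treatment, no spread between cultures of the same condition was measured. What the fit of genotype and treatment leaves over is how far the TGF-b response differed between genotypes. Any real difference of that kind is thus counted as error. With 2 residual degrees of freedom the p-values also lean on the variance estimated over all probe sets. RNA came from whole cultures, so more RNA per cell and more cells with the transcript cannot be told apart.

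TGF-b moved these genes in both directions. Of the 7 probe sets tested, 2 were higher with TGF-b on average over the 3 genotypes (Dusp4 and Dusp5), where 5.93% of all tested probe sets were called higher, and 3 were lower (Dusp6, Dusp2 and Spry1), where 3.49% were called lower. Dusp1 and Dusp10 did not pass. The median mean response of the 7 was -0.31 on the log2 scale, and that of all 20147 was 3e-04. For the same 5 genes the 3 arrays with TGF-b all lay on one side of the 3 without, in the direction of the call. That reads the same arrays as the tests, so it describes the calls and adds no separate support. Of all tested probe sets 13.4% had every TGF-b array above and 11.7% had every one below.

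**Figure D1:**
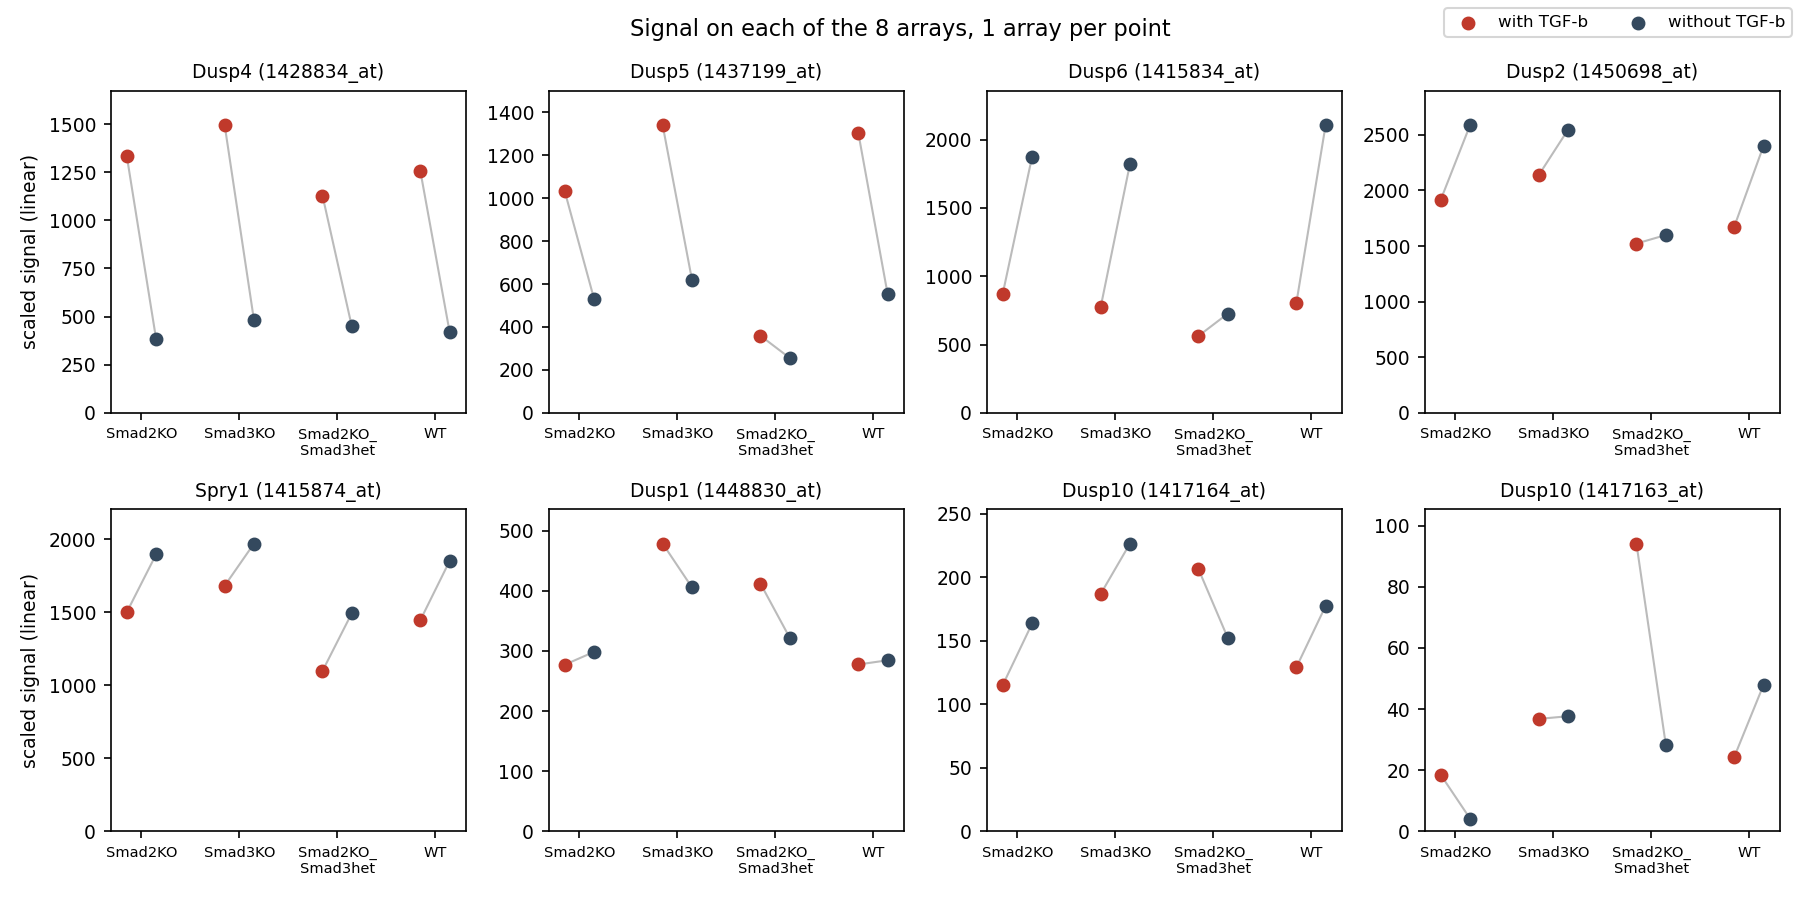
Scaled signal of the 8 member probe sets (linear axis from 0) on the 8 arrays, by genotype. Each point is 1 array, red with TGF-b and dark blue without, and a line joins the pair of a genotype. Dusp4 and Dusp5 are higher with TGF-b in every genotype and Dusp6, Dusp2 and Spry1 lower, while the pairs of Dusp1 and Dusp10 do not all run one way.

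Dusp4 encodes a nuclear phosphatase that acts on ERK, JNK and p38 and is induced after receptor stimulation. Its probe set, 1428834_at, read 1333 with TGF-b and 382 without in Smad2KO, 1495 and 481 in Smad3KO, 1129 and 449 in Smad2KO_Smad3het and 1257 and 419 in WT. All 4 arrays with TGF-b thus lay above all 4 without, and the gap was wide beside the differences between genotypes. The ratios were 3.49-fold in Smad2KO, 3.11-fold in Smad3KO, 2.52-fold in Smad2KO_Smad3het and 3.0-fold in WT. Over Smad2KO, Smad3KO and WT the signal averaged 1361 ± 122 with TGF-b and 427 ± 49.9 without (SD over the 3 genotypes). The mean response over the 6 arrays was 1.67 log2 units (SE 0.0864, limma adjusted p = 1.91e-06), and 127 of the 20147 probe sets, 0.63%, had a larger rise. Dusp4 was the one member still called when the Smad2KO_Smad3het pair was added to the fit, at 1.59 (SE 0.0908, limma adjusted p = 0.0277).

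Dusp5 encodes a nuclear phosphatase selective for ERK, and ERK activity itself drives the gene. Its probe set, 1437199_at, read 1031 with TGF-b and 529 without in Smad2KO, 1340.1 and 619.8 in Smad3KO, 359 and 255 in Smad2KO_Smad3het and 1304 and 553 in WT. On the 6 arrays all signals with TGF-b lay above all without, while both Smad2KO_Smad3het signals lay under every one of the other 6. The ratios were 1.95-fold in Smad2KO, 2.16-fold in Smad3KO, 1.41-fold in Smad2KO_Smad3het and 2.36-fold in WT. Over the 3 genotypes of the fit it averaged 1225 ± 169 with TGF-b and 567 ± 46.9 without (SD). The mean response on the 6 arrays was 1.10 (SE 0.0871, limma adjusted p = 3.08e-05). On all 8 arrays it was 0.95 (SE 0.135) and was no longer called (limma adjusted p = 0.104).

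Dusp6 encodes the cytoplasmic ERK phosphatase, and its transcript is widely used as a readout of ERK activity. Its probe set, 1415834_at, read 873 with TGF-b and 1876 without in Smad2KO, 772 and 1821 in Smad3KO, 563 and 727 in Smad2KO_Smad3het and 801 and 2107 in WT. It therefore ran opposite to Dusp4 and Dusp5 in every genotype, and the Smad2KO_Smad3het array without TGF-b lay under all other arrays without it. Signals were 2.15-fold lower with TGF-b in Smad2KO, 2.36-fold lower in Smad3KO, 1.29-fold lower in Smad2KO_Smad3het and 2.63-fold lower in WT. The averages were 815 ± 52.1 with TGF-b and 1934 ± 152 without (SD over the 3 genotypes). On the 6 arrays Dusp6 fell by 1.25 log2 units (SE 0.0822, limma adjusted p = 8.75e-06), and 72 probe sets, 0.357%, fell further. On all 8 arrays the mean was -1.03 (SE 0.179) and was not called (limma adjusted p = 0.136).

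The promoters of these oppositely moving genes are shown with that of Dusp1, whose mean response was near 0. Each is the 250 bases before the RefSeq gene start (build GRCm38.p6), read 5′ to 3′ on the gene's strand. The table held 6 of the 7 genes, all but Dusp4. Capitals mark matches, on either strand, to the Smad core CAGAC, the ETS factor sequence CCGGAA, the cAMP response half-site TGACG and the CArG box bound by serum response factor, which acts with ETS partners downstream of ERK. The sequences are Dusp5 at chr19:53528895-53529144 on the plus strand, Dusp6 at chr10:99262981-99263230 on the plus strand and Dusp1 at chr17:26508473-26508722 on the minus strand.
Dusp5: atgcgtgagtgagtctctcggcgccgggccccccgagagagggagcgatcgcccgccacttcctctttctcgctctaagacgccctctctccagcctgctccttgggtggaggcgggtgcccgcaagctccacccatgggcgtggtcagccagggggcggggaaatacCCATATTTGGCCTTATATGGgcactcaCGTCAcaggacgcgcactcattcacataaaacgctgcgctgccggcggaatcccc
Dusp6: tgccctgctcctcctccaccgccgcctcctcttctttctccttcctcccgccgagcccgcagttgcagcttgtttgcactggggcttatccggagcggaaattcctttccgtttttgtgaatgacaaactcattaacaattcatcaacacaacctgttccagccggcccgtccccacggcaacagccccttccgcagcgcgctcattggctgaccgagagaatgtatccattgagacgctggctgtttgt
Dusp1: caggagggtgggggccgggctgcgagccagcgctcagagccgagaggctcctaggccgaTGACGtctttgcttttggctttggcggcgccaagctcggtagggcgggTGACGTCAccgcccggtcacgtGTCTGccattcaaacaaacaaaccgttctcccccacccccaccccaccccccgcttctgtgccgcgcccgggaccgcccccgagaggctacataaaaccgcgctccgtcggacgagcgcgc
Dusp5 held 2 CArG boxes side by side, starting 82 and 72 bases before the start, and 1 cAMP half-site at 55. A CArG box is in 1.47% of the 32851 windows of this length in the table. Dusp1 held 3 cAMP half-sites, at 191, 143 and 140 bases, of which those at 143 and 140 overlap on opposite strands, and 1 Smad core at 121. These cores are in 17.8% and 42.2% of windows. Dusp2 had 1 Smad core at 213 bases, and Dusp6, Dusp10 and Spry1 had no match to any of the 4 in this window. The ETS form searched, CCGGAA, in 3952 of the windows, was in 0 of the 6, and shorter ETS cores were not searched for. A match is a description of these letters only.

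Dusp2 encodes a nuclear phosphatase of ERK and p38 that is abundant in activated leukocytes, and it was lower with TGF-b. Its probe set, 1450698_at, read 1916 with TGF-b and 2588 without in Smad2KO, 2135 and 2544 in Smad3KO, 1522 and 1599 in Smad2KO_Smad3het and 1674 and 2403 in WT. The differences were modest, largest in WT and smallest in Smad2KO_Smad3het. Dusp2 fell by 0.40 log2 units over the 6 arrays (SE 0.076, limma adjusted p = 0.0075). Without the Smad2KO pair the value was -0.39 and was not called (limma adjusted p = 0.0921), and on all 8 arrays it was -0.32 (limma adjusted p = 0.274).

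Spry1 encodes an inhibitor of receptor-driven Ras and ERK signalling that T cells induce on activation. Its probe set, 1415874_at, read 1500.2 with TGF-b and 1896 without in Smad2KO, 1681 and 1970 in Smad3KO, 1098 and 1493 in Smad2KO_Smad3het and 1445 and 1851 in WT. All 4 pairs ran downward, from 1.17-fold lower with TGF-b in Smad3KO to 1.36-fold lower in Smad2KO_Smad3het. Its mean response was -0.31 (SE 0.072, limma adjusted p = 0.0218), the smallest of the 5 called. The call was lost without the WT pair (-0.28, limma adjusted p = 0.0642), without the Smad2KO pair (-0.29, limma adjusted p = 0.201) and on all 8 arrays (-0.34, limma adjusted p = 0.122).

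Dusp1, the nuclear phosphatase that acts mainly on p38 and JNK and is known as an early stress-response gene, had no common direction. Its probe set, 1448830_at, read 277 with TGF-b and 298 without in Smad2KO, 478 and 406 in Smad3KO, 412 and 322 in Smad2KO_Smad3het and 277 and 284 in WT. It was thus higher with TGF-b in Smad3KO and Smad2KO_Smad3het and slightly lower in Smad2KO and WT. The mean response on the 6 arrays was 0.03 (95% interval -0.21 to 0.28, limma adjusted p = 0.89).

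Dusp10, a phosphatase of JNK and p38 that limits T cell cytokine production in mice, was read by a brighter and a dimmer probe set. The brighter, 1417164_at, read 115 with TGF-b and 164 without in Smad2KO, 187 and 226 in Smad3KO, 206 and 152 in Smad2KO_Smad3het and 129 and 177 in WT. It was lower with TGF-b in 3 genotypes and higher in Smad2KO_Smad3het. The mean response on the 6 arrays was -0.42 (95% interval -0.72 to -0.11) and did not pass after adjustment (limma adjusted p = 0.0886). The dimmer, 1417163_at, read 4.17 to 48.0 on the 6 arrays, around or under the floor, and was not tested. On the Smad2KO_Smad3het arrays it read 94.1 with TGF-b and 28.4 without, either side of those arrays' own medians.

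Changes of at least 2-fold within a pair were few, and a pair has no replicate check. In WT 2 member probe sets reached 2-fold upward (Dusp4 and Dusp5) and 1 downward (Dusp6), where 4.64% and 3.02% of all bright probe sets did. Smad3KO gave the same 3, against 2.1% and 0.785% of all. In Smad2KO it was Dusp4 higher and Dusp6 lower, against 3.64% and 1.54%, with Dusp5 just short of 2-fold. In Smad2KO_Smad3het Dusp4 and the dim Dusp10 probe set were higher and 0 were lower, against 14.4% and 13%. The bright cut of 51.6 lies under the medians of those arrays, 82.0 and 84.7. It passed 32272 probe sets there, against 18600 to 19280 in the other genotypes. The shares in Smad2KO_Smad3het therefore cannot be set beside those of the other genotypes.

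**Figure D2:**
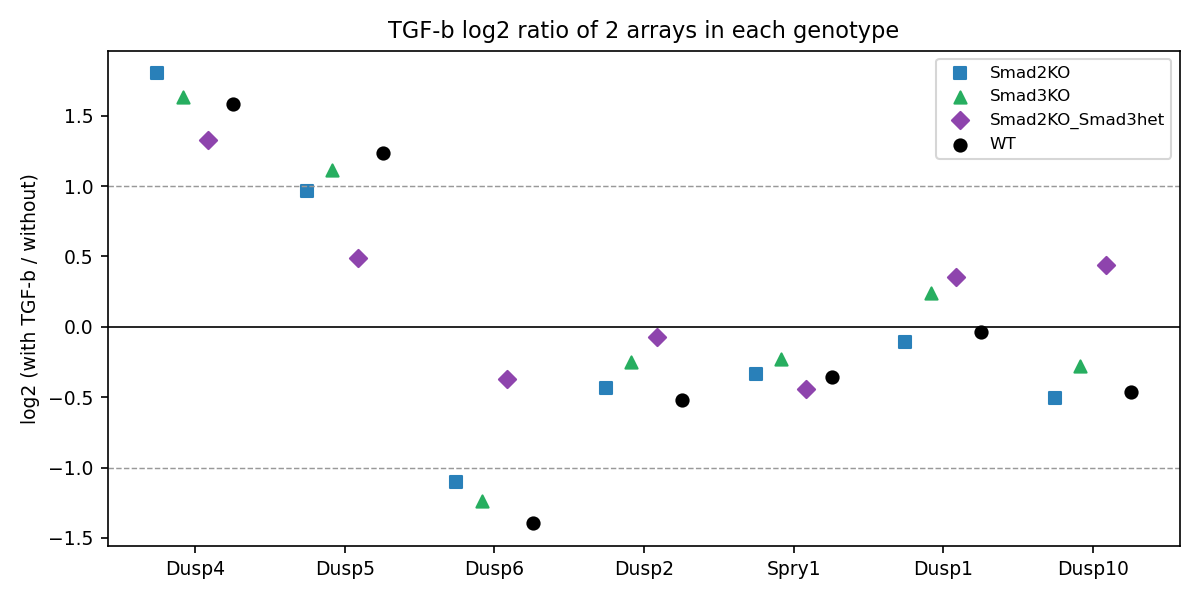
TGF-b log2 ratio (with over without) of the 7 tested member probe sets, each point the ratio of 2 arrays of 1 genotype, with dashed lines at 2-fold. The Smad2KO, Smad3KO and WT points of Dusp4, Dusp5 and Dusp6 lie close together, and the Smad2KO_Smad3het points of Dusp5 and Dusp6 lie nearer to 0.

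Whether the response itself differed between genotypes was tested as an interaction on the 6 arrays, with 1 residual degree of freedom. For the response of Smad3KO minus the mean of WT and Smad2KO, 0 of the 7 member probe sets were called, where 0.0298% of all probe sets were called higher and 0.104% lower. The difference was -0.06 for Dusp4 (95% interval -0.45 to 0.34, limma adjusted p = 0.994), 0.01 for Dusp5 (-0.38 to 0.41, limma adjusted p = 0.998) and 0.01 for Dusp6 (-0.37 to 0.39, limma adjusted p = 0.998). In the Smad3KO pair itself the log2 ratios were 1.64 for Dusp4, 1.11 for Dusp5 and -1.24 for Dusp6. The intervals rest on that 1 pair and lean on the variance estimated over all probe sets. They hold no spread between cultures of the same condition, so they speak for these cultures only. The largest difference was that of Dusp1, 0.31 (-0.18 to 0.80, limma adjusted p = 0.93).

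For the response of WT minus the mean of Smad2KO and Smad3KO, 0 of 7 were called either, against 0.0149% of all probe sets higher and 0.0597% lower. The values were -0.13 for Dusp4 (95% interval -0.52 to 0.26), 0.20 for Dusp5 (-0.18 to 0.58), -0.22 for Dusp6 (-0.56 to 0.11) and -0.18 for Dusp2 (-0.48 to 0.12), with limma adjusted p from 0.739 to 0.972 over the 7. Unadjusted, 0 of the 7 were under 0.05 in either test, as 6.15% of all probe sets were in the comparison for Smad3KO and 8.25% in that for WT. The Smad2KO_Smad3het pair does not enter these tests.

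**Figure D3:**
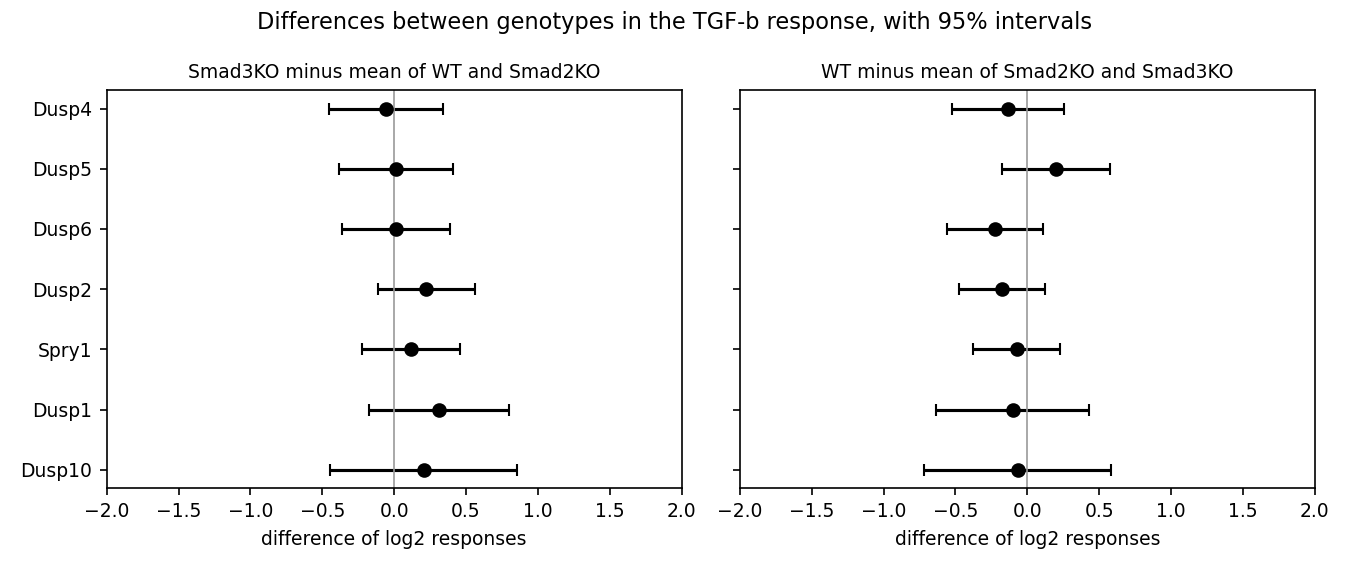
Difference between genotypes in the log2 TGF-b response of each tested member probe set, on the left for Smad3KO minus the mean of WT and Smad2KO and on the right for WT minus the mean of Smad2KO and Smad3KO. Points are limma estimates on 6 arrays and bars are 95% intervals, and every interval includes 0.

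Levels were also compared between genotypes over both treatments. In Smad2KO against WT 0 of 7 member probe sets were called, where 0.546% of all were higher and 0.412% lower. The differences ran from -0.20 for Dusp5 (95% interval -0.44 to 0.03) to 0.15 for Dusp2 (-0.05 to 0.36), and 0 of the 7 had an unadjusted limma p under 0.05, as 9.8% of all probe sets did. In Smad3KO against WT 0 of 7 were called as well, where 0.159% of all were higher and 0.213% lower, while 3 (Dusp1, Dusp2 and Dusp10) had an unadjusted limma p under 0.05, as 10.3% of all probe sets did. With arrays centred on their medians the calls over all probe sets split into 396 higher and 70 lower in place of 110 and 83 for Smad2KO, and into 398 and 46 in place of 32 and 43 for Smad3KO.

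Dusp1 came nearest to a call. It was 1.72-fold higher in Smad3KO than in WT with TGF-b (478 against 277) and 1.43-fold higher without (406 against 284). The mean difference was 0.65 (95% interval 0.35 to 0.95) and did not pass after adjustment (limma adjusted p = 0.0856). With arrays centred on their medians it was 0.83 and passed (limma adjusted p = 0.0115), and with a floor at the 25th percentile it passed too (limma adjusted p = 0.0302), while over all its alternatives the adjusted p ran from 0.0115 to 1. Dusp10 was 0.44 higher in Smad3KO (0.07 to 0.81, limma adjusted p = 0.378).

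**Figure D4:**
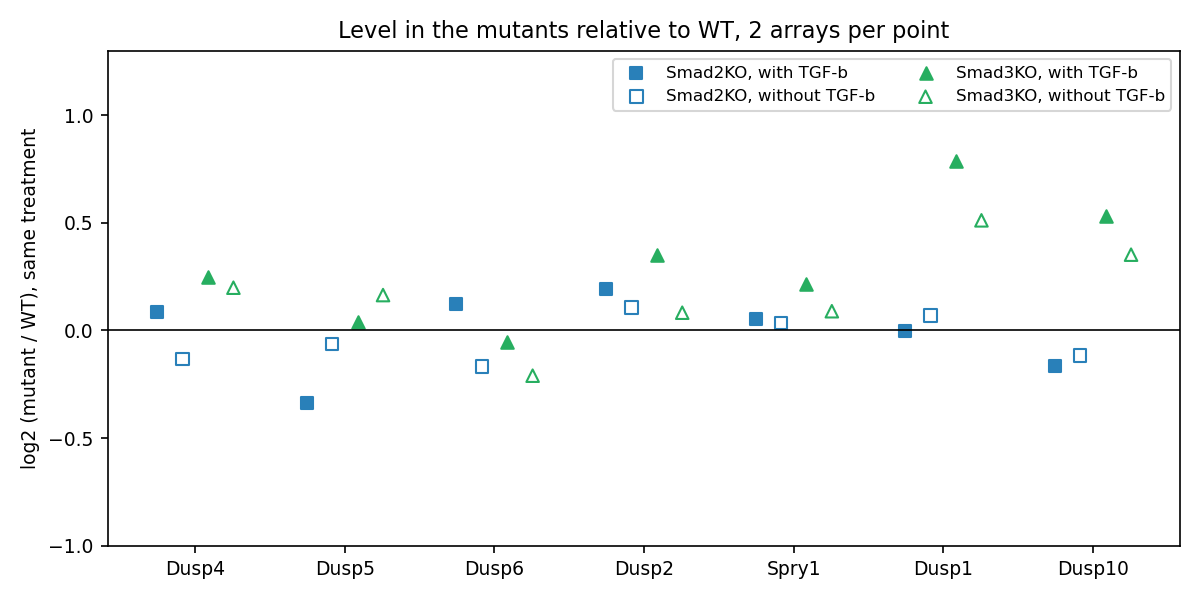
Log2 ratio of the signal in Smad2KO (squares) and Smad3KO (triangles) to that in WT at the same treatment, filled with TGF-b and open without, for the 7 tested member probe sets. Each point is a ratio of 2 arrays. Both Smad3KO points of Dusp1 (0.79 and 0.51) lie above every Smad2KO point.

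In Smad2KO_Smad3het against WT the widest gaps among the bright probe sets were in Dusp5 with TGF-b and in Dusp6 without. Dusp5 was at 0.276 of WT with TGF-b and 0.462 without, and Dusp6 at 0.703 and 0.345. Dusp4 was close to WT, at 0.898 with TGF-b and 1.07 without. These arrays differed from all others over the whole range of signals, and the part of that in these ratios was not tested.

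Other genes of the pathway were read from 5 lists, each gene at its brightest probe set. Of all tested probe sets 5.93% were called higher with TGF-b and 3.49% lower, and each count below is to be read beside those shares. Of 19 other dual-specificity phosphatases 11 were tested, and 1 rose and 1 fell with TGF-b. Dusp16, a phosphatase of JNK and p38, fell by 0.93 (SE 0.193, limma adjusted p = 0.0121), and Ssh1, a phosphatase of cofilin, rose by 0.79 (SE 0.171, limma adjusted p = 0.0154). Dusp16 read 97.6 with TGF-b and 187 without in Smad2KO, 91.3 and 125 in Smad3KO, and, in WT, 67.8 and 179. In Smad2KO_Smad3het it read 39.6 with TGF-b and 36.1 without, and so was not lower. Dusp7, a phosphatase of ERK, was at -0.18 (limma adjusted p = 0.594).

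Of 17 other inhibitors of Ras and ERK signalling 10 were tested. Rasa3, a Ras GTPase-activating protein gene, rose by 0.78 (SE 0.198, limma adjusted p = 0.0454), and Dab2ip, another, was at -0.89 (SE 0.24, limma adjusted p = 0.041). Dab2ip was bright enough to be tested only through arrays without TGF-b (35.9 to 47.9 with TGF-b and 57.2 to 90.8 without), so its fall is not separate from the filter. With a filter on the mean signal it had the same value and a limma adjusted p of 0.0433. The Sprouty genes Spry2, Spry3 and Spry4 were too dim to be tested, so Spry1 was the 1 Sprouty gene with a value. Spred1 was at -0.04 (limma adjusted p = 0.882) and Spred2 at -0.30 (limma adjusted p = 0.145).

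Of 25 ERK cascade genes 17 were tested, 2 rose and 1 fell, against 5.93% and 3.49% of all probe sets. The ERK-activated kinase gene Mknk2 rose by 0.60 (SE 0.0741, limma adjusted p = 0.000586) and Rasgrp1, the Ras activator below the T cell receptor, by 0.39 (SE 0.109, limma adjusted p = 0.0494). The call of Rasgrp1 was lost when probe sets were filtered on their mean signal (limma adjusted p = 0.0576). Its smallest rise was that of the Smad3KO pair, from 423 to 457. Ksr1, a scaffold of the Raf, MEK and ERK kinases, fell by 0.90 (SE 0.171, limma adjusted p = 0.00847). Most of the cascade's kinases did not pass, among them Braf at 0.11, Map2k1 at 0.15 and Map2k2 at -0.11.

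Of 29 genes of the JNK and p38 cascades 24 were tested, 2 rose and 2 fell, against the same 5.93% and 3.49%. Mapkapk3, a kinase that p38 activates, rose by 2.12 (SE 0.192, limma adjusted p = 0.00337), and read 3718 with TGF-b and 802 without in Smad2KO, 1899 and 639 in Smad3KO, and, in WT, 3922 and 659. In Smad2KO_Smad3het it read 1475 with TGF-b and 584 without. Gadd45g, an activator of the p38 and JNK cascades, rose by 1.75 (SE 0.204, limma adjusted p = 0.000393). The p38 gamma gene Mapk12 was at -1.35 (SE 0.28, limma adjusted p = 0.0124), with a WT signal under the floor with TGF-b. It too was bright enough only through arrays without TGF-b (20.9 to 46.7 with TGF-b and 71.0 to 93.9 without). With a filter on the mean signal it had a limma adjusted p of 0.0166. Map4k1, a kinase below the T cell receptor, fell by 0.43 (SE 0.0863, limma adjusted p = 0.011).

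A last list held 24 genes, early genes that ERK induces together with factors that act below ERK (Elk1, Elk3, Elk4 and Srf). Of these 21 were tested, 5 rose and 4 fell, where 5.93% and 3.49% of all probe sets were called higher and lower. Fos, a subunit of the AP-1 factor, fell by 1.19 (SE 0.122, limma adjusted p = 0.000173), reading 145 with TGF-b and 313 without in Smad2KO, 137 and 335 in Smad3KO, and, in WT, 136 and 308. In Smad2KO_Smad3het it ran the other way, at 35.2 with TGF-b and 12.6 without, both under those arrays' medians. Klf10, which TGF-b is known to induce, rose by 1.93 (SE 0.127, limma adjusted p = 8.72e-06). Phlda1 rose by 1.10 (SE 0.0931, limma adjusted p = 4.95e-05) and Ier3 was at 1.20 (SE 0.29, limma adjusted p = 0.0271), with a WT signal under the floor without TGF-b. The other called genes, named after their values were seen, were Elk3 at 0.83 and Jun at 0.66, and Fosl1 at -0.94, Egr1 at -0.77 and Egr3 at -0.56. Over the 5 lists 0 genes were called between genotypes in level, and 1, Jund, was called in the interaction tests. Its response in Smad3KO was 1.02 higher than the mean of WT and Smad2KO (SE 0.175, limma adjusted p = 0.0253). Of all probe sets 0.0298% were called higher in that test and 0.104% lower, with 1 residual degree of freedom. The test called 0 probe sets with no filter, without limma's trend and robust settings, or with the Smad2KO_Smad3het pair added. The Jund call was therefore lost in those settings.

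**Figure D5:**
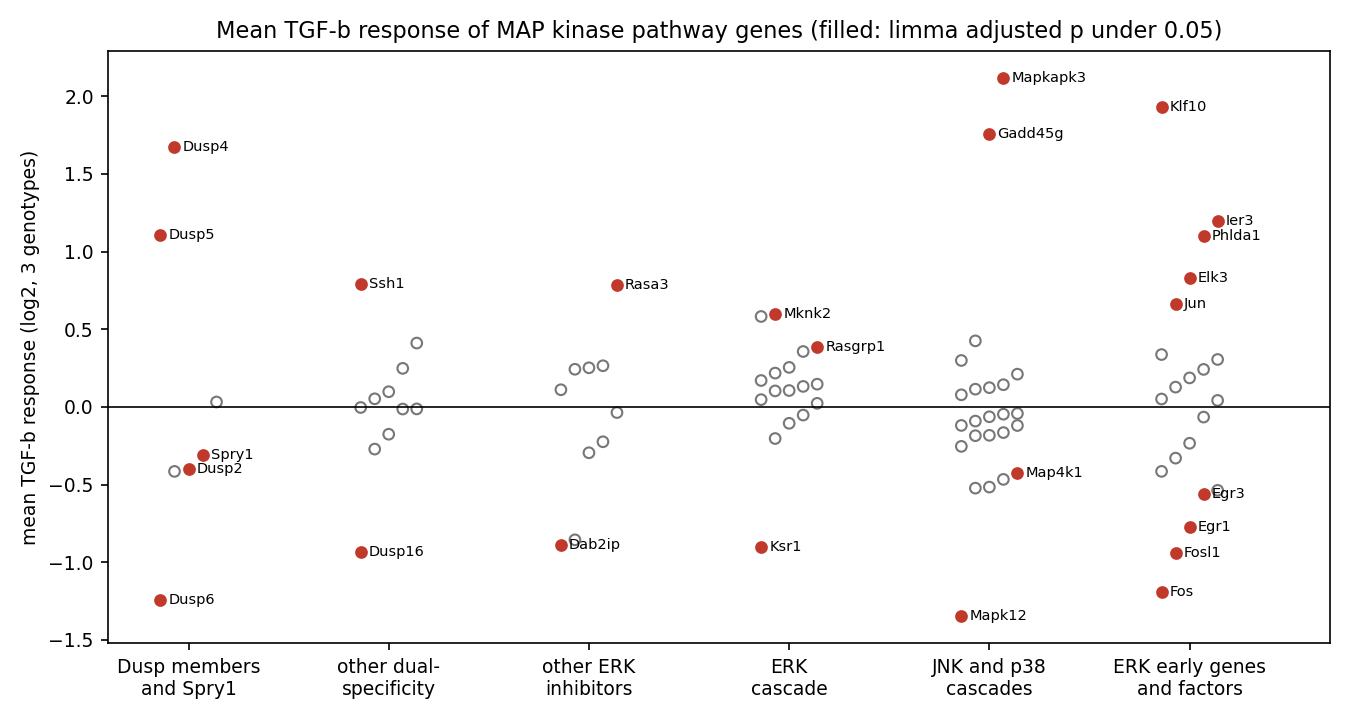
Mean TGF-b response (log2, over Smad2KO, Smad3KO and WT) of each tested gene of the members and the 5 pathway lists, at its brightest probe set. Filled red points passed at a limma adjusted p under 0.05 and are named, and open points did not pass. Dusp4 and Dusp5 lie at 1.67 and 1.10 and Dusp6 at -1.25, and each list holds genes called in both directions.

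On the 6 arrays the summed myeloid marker signal was 114 to 151 with TGF-b and 154 to 206 without, and that of NK markers 32.5 to 69.3 and 7.23 to 19.5. Csf1r was the brightest myeloid marker on 5 of the 6 arrays, at 42.9 to 56.6 with TGF-b and 49.1 to 97.1 without, and the 3 NK markers stayed under 51.6. Their part in these responses was not tested. The summed CD4 T cell marker signal was 21206 to 22709 with TGF-b and 20942 to 21014 without.

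The genes whose log2 signal ran most like that of each member over the 6 arrays were found among 9452 others, by Pearson's r. The points share arrays and form TGF-b pairs. For Dusp4 they were C9orf72 (r = 0.996), Bcl11b (0.987) and the TGF-b feedback gene Skil (0.985). For Dusp5 they were Sit1 (0.995), Hemk1 (0.995) and Fbh1 (0.994), and for Dusp6 Lypd6b (0.994), Bspry (0.993) and Eif4e2 (0.992). Dusp2 was nearest to Mcrip2, Cst7 and Grap (0.998, 0.998 and 0.996) and Spry1 to Aqr, Ddt and Dnajc15 (0.996, 0.995 and 0.995). Dusp10 was nearest to Diaph3, Asnsd1 and Mrpl12 (0.994 each) and Dusp1 to Sorl1, Fam104a and Ppip5k1 (0.991, 0.987 and 0.987). Over so few arrays such values are common, as between 20 genes (Dusp1) and 166 genes (Dusp2) passed 0.95.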

How the data were processed

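RNA (6 ug per sample) was hybridised to 8 single-colour Affymetrix arrays. The authors deposited 1 linear intensity per probe set and array. The submitters' processing notes name GCOS 1.4, but which algorithm, background and scaling it applied was not given in the sources used here. Deposited medians ran from 27.3 to 44.4, and arrays were scaled to a 2% trimmed mean of 202 (factors 0.677 to 2.07). Values were raised to the floor where lower, then log2 transformed. With 1 array per condition, array number limits precision.

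Of 45101 probe sets 64 were controls, 34945 had 1 symbol, 932 had several and 9160 were unnamed here. Names are from the platform annotation, and 34754 probe sets matched the RefSeq gene table (GRCm38.p6) by Entrez identifier. Models were fitted in limma 3.58.1 (R 4.3.3) with trend and robust variances, as additive fits of genotype and treatment, or with 1 interaction term. Probe sets with no residual spread were not tested. The code was tested on simulated data. Figures were drawn with matplotlib 3.10.9.

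Members, lists, tests and alternatives were chosen with earlier results of these data known. The text names all member probe sets, the 3 genes most like each member, and up to 4 called genes per pathway list with the largest mean response. Alternatives covered scaling, floor, filter, probe set choice, variance model, arrays and block.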

Additional observations from a re-analysis of the deposited data

How the results depend on the processing

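Over 13 alternatives the mean TGF-b response of Dusp4 kept its direction and call (1.59 to 1.72). Dusp5 (0.95 to 1.17) and Dusp6 (-1.32 to -1.03) kept theirs except on all 8 arrays. Dusp2 (-0.48 to -0.32) kept its direction and lost its call in 4, and Spry1 (-0.35 to -0.28) in 6: both with no filter, without limma's trend and robust settings, on all 8 arrays and without the Smad2KO pair, and Spry1 also without the WT pair and with no genotype block. Dusp1 and Dusp10 were called in none.

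Called over all probe sets, the mean response had 1898, and 515 with no filter, 1211 with 1 probe set per gene, 403 without trend and robust settings, 22 on all 8 arrays, 914 with no genotype block and 798 to 2747 with a genotype pair left out. Smad2KO levels had 193, and 466 with centred arrays, 340 with the lower floor, 18 with no filter, 96 with 1 probe set per gene, 6 without trend and robust settings, 7 on 8 arrays, 424 without the Smad3KO pair and 19 with no treatment block. Smad3KO levels had 75, and in the same order of settings 444, 245, 3, 44, 2, 2, 68 (without the Smad2KO pair) and 3. The Smad3KO difference in response had 27, and 53 with quantile normalization, 100 with centred arrays, 153 with the lower floor, 17 with a pseudocount of 16 and no floor, and 0 with no filter, without trend and robust settings or on 8 arrays, while 1239 had an unadjusted limma p under 0.05 as reported. The WT difference had 15 (1658 unadjusted), and 55, 91, 98 and 8 in those first 4 settings, 1 with no filter, 2 with 1 probe set per gene, and 0 without trend and robust settings or on 8 arrays. The causes were not tested. Pair ratios of the members at 2-fold numbered 9 to 11 in place of 10.

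The labels give no replicate numbers. The mean response as reported compares arrays within each genotype pair, and 914 is its count without that pairing. Signal over background limits Dusp10, whose dim probe set gave no tested value.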
